A study of Mus musculus with 6 samples.

Results

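The genes described here are the FGF receptors and the FGF ligands of cartilage in the intervertebral disc (IVD): the receptors Fgfr1, Fgfr2, Fgfr3, Fgfr4 and Fgfrl1 and the ligands Fgf1, Fgf2 and Fgf18. They are a list of named genes, set without a threshold on any measured value, and the 8 members are 8 of the 43472 gene rows in the deposited counts. Each had counts in the 6 libraries and each passed the filter on low counts. RNA-seq was performed on whole IVDs (T8 to L5) of C57B6/J mice at postnatal day 20 (P20). There were 3 libraries from Col2Cre;Adgrg6 f/f mutant mice, in which Cre driven by Col2 acts on the floxed Adgrg6 gene throughout the disc, and 3 from Cre (-) controls, which the labels give as wild type and the titles as Col2Cre controls. Each library pooled the discs of 2 or 3 mice, no sex is given, and the loss of Adgrg6 cannot be told apart from the presence of the Cre transgene, or of the floxed allele where the titles are followed.

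FGF ligands bind receptor tyrosine kinases at the cell surface together with heparan sulfate, and the receptors signal through the adaptor Frs2, the Ras and MAP kinase pathway, phospholipase C gamma and STAT proteins. In growing cartilage Fgfr3 is the receptor of proliferating and prehypertrophic chondrocytes and restrains their proliferation, Fgfr1 is best known from hypertrophic chondrocytes and Fgfr2 from the perichondrium and condensing mesenchyme. Fgf18 acts on growth plate and articular chondrocytes from the surrounding tissue, Fgf2 is held in the cartilage matrix, Fgf1 is a ligand that all of the kinase receptors can bind, and Fgfrl1 is a receptor without a kinase domain.

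The libraries held 9061491 to 12017008 counts on genes, 40.4% to 44.2% of the reads counted. Col2a1, the main cartilage collagen, was abundant, at 94670 ± 27722 CPM (normalized counts scaled to the size of each library; SD, n = 3) in controls and 113940 ± 13580 in mutants. Of 9 cartilage genes, Col2a1 among them, 2 had a higher fitted level in mutants. Their median log2 fold change of mutant over control was -0.29. The deleted gene, listed under its older symbol Gpr126, was at 109 ± 14.7 CPM in controls and 122 ± 16.1 in mutants, and counts over the whole gene do not show whether a floxed part is missing. Other tissues were unequally present. The summed CPM of 8 skeletal muscle genes was 3412 in control replicate 1 against 68.8 to 163 in the other 5 libraries. Of its defining transcription factors, Myod1 was at 1.71 CPM in that library and at 0 to 0.114 in the others, while Pax7 was at 0.107 there and at 2.00 and 2.66 in control replicates 2 and 3. The sum of 9 genes of glia and neurons ran from 241 to 1907 in controls and from 1003 to 4005 in mutants. The sum of 7 genes of red cell and neutrophil precursors was 20.1 to 49.3 in controls and 48.6 to 118 in mutants, with 7 of 7 higher in fitted level, and that of 6 genes of annulus and tendon was 2889 to 4219 and 3775 to 5331, with 5 of 6 higher. The sum of 9 cartilage genes was lowest in control replicate 3, at 84655 against 118200 to 148600 in the others. Most of this sum was Col2a1, at 62708 CPM in control replicate 3. Of the 9 genes only Col2a1 and Sox9 were lowest in that library, and each of the others was lower in some mutant library. The part of these differences in the values given below was not tested, and in such bulk samples fewer cells of a type and less RNA per cell cannot be told apart.

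The regions around the start sites are shown first for the receptors Fgfr2 and Fgfr3 and the ligand Fgf2, since the results for Fgfr2 turn on where its gene is taken to begin, Fgfr3 is the receptor best known from chondrocytes and Fgf2 is the member whose groups did not overlap. They are RefSeq promoters of build GRCm38.p6, from 250 bases before to 50 bases after the start, 5′ to 3′ on the strand of the gene. Capitals mark the GC box GGGCGG, bound by Sp family factors, and the CRE half-site TGACG, on either strand. The Fgfr2 region is chr7:130266759-130267058 on the minus strand, the Fgfr3 region chr5:33721474-33721773 on the plus strand and the Fgf2 region chr3:37348403-37348702 on the plus strand.
Fgfr2: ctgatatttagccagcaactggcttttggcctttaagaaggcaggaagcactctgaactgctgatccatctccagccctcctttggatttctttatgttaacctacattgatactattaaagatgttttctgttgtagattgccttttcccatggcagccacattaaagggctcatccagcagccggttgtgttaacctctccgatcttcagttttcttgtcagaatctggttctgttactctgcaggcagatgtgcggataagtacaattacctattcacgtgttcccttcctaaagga
Fgfr3: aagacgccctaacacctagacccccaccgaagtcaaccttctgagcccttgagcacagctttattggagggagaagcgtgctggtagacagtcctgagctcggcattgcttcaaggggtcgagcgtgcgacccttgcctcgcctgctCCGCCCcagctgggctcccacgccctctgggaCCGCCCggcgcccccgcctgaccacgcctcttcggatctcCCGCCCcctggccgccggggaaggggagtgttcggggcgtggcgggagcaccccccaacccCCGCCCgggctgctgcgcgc
Fgf2: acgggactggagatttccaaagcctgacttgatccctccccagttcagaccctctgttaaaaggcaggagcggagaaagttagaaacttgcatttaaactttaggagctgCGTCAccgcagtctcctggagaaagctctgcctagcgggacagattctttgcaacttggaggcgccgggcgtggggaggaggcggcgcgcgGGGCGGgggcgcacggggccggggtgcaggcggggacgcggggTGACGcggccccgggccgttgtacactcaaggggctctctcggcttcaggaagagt

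The Fgfr2 region differed in base composition from the others. Its GC content was 43.7%, below the median of 52.7% over 32851 promoters of the same length, whereas Fgfr3 was at 69.7% and Fgf2 at 62.7%. The GC box had 0 matches in the Fgfr2 region, 4 in the Fgfr3 region and 1 in the Fgf2 region, and it occurs in 35.7% of all promoters. The half-site TGACG had 2 matches in the Fgf2 region and 0 in both receptor regions, and it occurs in 20.8% of all promoters. The ETS core CCGGAAG (8.86% of promoters) and TATAAA (13.6%) had 0 matches in these 3 regions on either strand. Fgfr3 had a second RefSeq start, with the region chr5:33722056-33722355 at 73% GC with 2 GC boxes and 0 TGACG matches. Fgfr4, Fgfrl1 and Fgf18 were also matched to a promoter, so that 6 members had one, with GC contents of 65.3%, 73.7% and 78.7%. They held 4, 4 and 1 GC boxes and 0 TGACG matches, and Fgfrl1 held 1 ETS core. These are matches of letters and not measured binding.

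The row of Fgfr2 held more than Fgfr2. In GENCODE M21, on build GRCm38, the gene spans chr7:130162451-133123350 on the minus strand, while RefSeq ends it at 130266808, so that 96.5% of the GENCODE span (2.86 Mb) lies beyond the start site shown above. This stretch encloses many other genes. Of 20 genes on the same strand wholly inside it with a row in the files, 13 of them protein coding, 20 had 0 counts in the 6 libraries. Of 21 genes on the opposite strand inside it, 19 had counts. Ctbp2, a transcriptional corepressor on the same strand that reaches 1004 bases outside the span, had 5 to 13 counts per library.

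Htra1, a secreted serine protease abundant in cartilage, is the main opposite-strand gene inside the Fgfr2 span, at chr7:130936111-130985660. Its exons share 0 bases with Fgfr2 exons. Htra1 had 4799, 5734 and 9240 counts in the controls, given here and below in the order of their replicate numbers, and 5464, 6906 and 7986 in the mutants. The Fgfr2 row had 11056, 10825 and 18000 counts in controls and 12309, 15091 and 12837 in mutants. Both rows were highest in control replicate 3. The opposite-strand genes together amounted to 69.3%, 78.1% and 72.4% of the Fgfr2 count in controls and to 64.3%, 68.3% and 83.3% in mutants, and Htra1 alone to 43.4% to 62.2%. The library kit named in the labels does not mark strand, and the strand setting of the count is not given in the sources used here. Over 195 pairs in the annotation where a gene with more than 1000 counts lies inside a longer gene on the other strand, the enclosing gene had at least 0.9 times the counts of the enclosed gene in 191, with a median ratio of 2.16. These pairs include Fgfr2 with Htra1, Tacc2, Bub3 and Acadsb, and Fgf1 with Arhgap26. Some pairs share an enclosing gene, and an enclosing gene with enough reads of its own reaches that ratio without shared reads. The remainder of the Fgfr2 row, after subtraction of its 21 opposite-strand genes, was 3398, 2375 and 4963 counts in controls and 4400, 4778 and 2149 in mutants. This remainder is an arithmetic difference, chosen after the data were seen, and not a count of Fgfr2 reads.

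**Figure D1:**
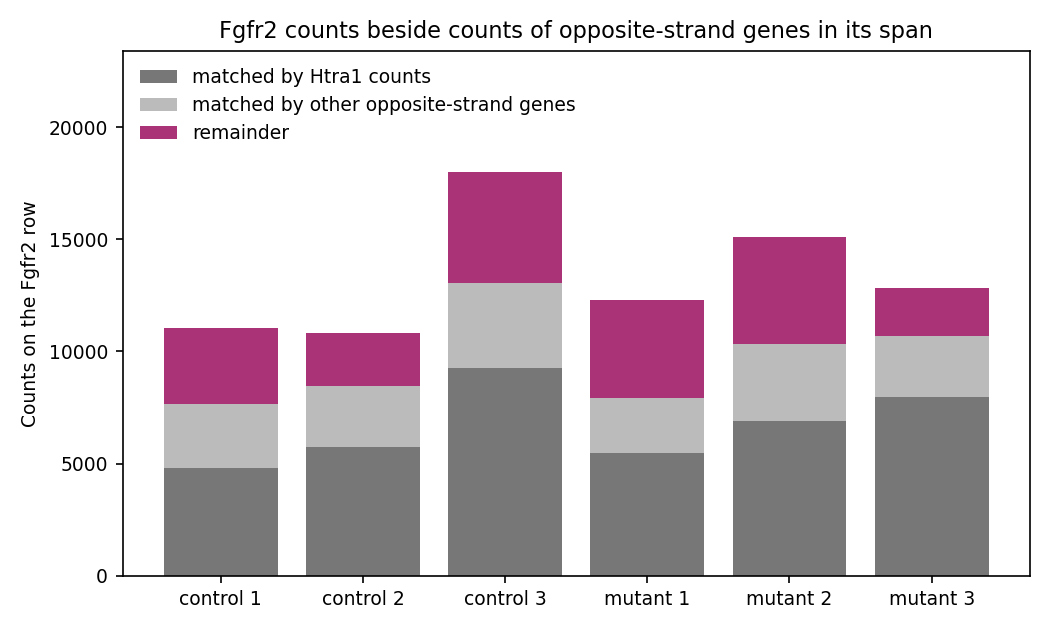
Counts on the Fgfr2 row in each of the 6 libraries (y axis, raw counts), divided into a part equal to the Htra1 count, a part equal to the counts of the other opposite-strand genes inside the span, and the remainder. The opposite-strand parts together take 64.3% to 83.3% of each bar.

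Overlaps bore on 3 other members. Fgf1 lies wholly within Arhgap26, a gene on the opposite strand that has 0 exon bases there. Arhgap26 had 3646 counts in total against 1943 for Fgf1, and the ratio of Fgf1 to Arhgap26 counts was 0.540, 0.447 and 0.478 in controls and 0.589, 0.587 and 0.598 in mutants. Fgf2 shares its last 5199 bases, all of them exon and 5199 of its 6782 exon bases, with the opposite-strand gene Nudt6, a nudix hydrolase also known as the antisense partner of Fgf2. Nudt6 had 966 counts and Fgf2 430 in all. Fgf2os, an antisense transcript at the other end of Fgf2, had 69 counts. Fgfr1 contains the antisense gene Gm16159, whose counts were 2.65% of its own. Fgfr3, Fgfr4, Fgfrl1 and Fgf18 overlapped no gene with a row in the files.

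The receptors Fgfrl1, Fgfr3 and Fgfr1 stood well above the ligands in level. On the scale of CPM per kilobase of exon, the control means were 59.4 ± 14.7 for Fgfrl1, 50 ± 7.39 for Fgfr3 and 29.4 ± 6.45 for Fgfr1 (SD, n = 3). This scale compares genes only roughly. The 20 same-strand genes inside Fgfr2 were at 0 though their exons share 0 bases with its exons. Reads outside exons may therefore be in the counts, and exon length makes no allowance for them. The Fgfr2 row stood at 122 ± 12.03 as counted and at 32.8 ± 6.38 as the remainder, which lies between Fgfr3 and Fgfr1. The ligands followed with 5.79 ± 1.43 for Fgf1, 4.84 ± 2.08 for Fgf18 and 1.25 ± 0.230 for Fgf2, and Fgfr4, the receptor best known from liver and muscle, stood among them at 2.64 ± 0.555.

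Control libraries of neighbours in this order did not overlap between Fgfr2 and Fgfrl1, between Fgfr3 and Fgfr1, between Fgfr1 and Fgf1, or between Fgfr4 and Fgf2. They overlapped between Fgfrl1 and Fgfr3, between Fgf1 and Fgf18, and between Fgf18 and Fgfr4. Within single libraries, Fgfrl1 was above Fgfr3 in 6 of 6 and Fgf18 above Fgfr4 in 6 of 6. Fgf1 was above Fgf18 in 1 of 6, and in the mutant means Fgf18 ranked above Fgf1. The step from Fgfr1, the lowest kinase receptor of the leading group, down to Fgf1 was present in 6 of 6 libraries, whereas Fgfr3 was above Fgfr1 in 4 of 6. With the longest transcript in place of all exons, Fgfr3 took rank 2 and Fgfrl1 rank 3 in controls, and Fgfr3 was above Fgfrl1 in 4 of 6 libraries.

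**Figure D2:**
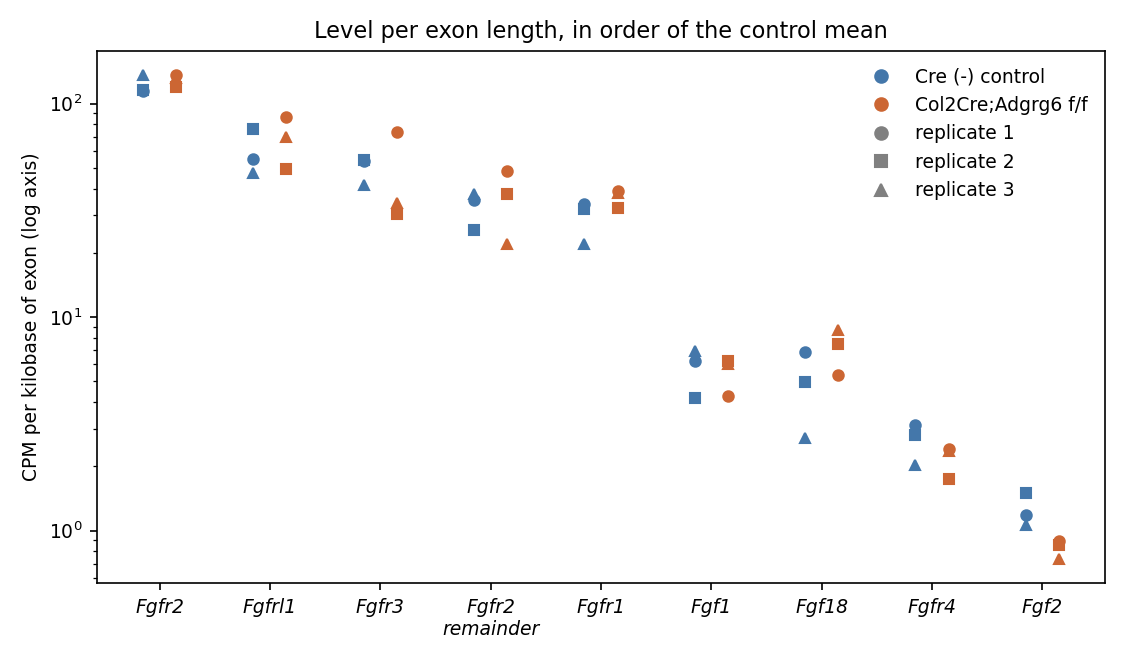
Level of each member in each library in CPM per kilobase of exon (y axis, log scale), in the order of the control mean, with the remainder of the Fgfr2 row beside the full row; colours are groups and symbols replicates. Fgfrl1, Fgfr3 and Fgfr1 lie between 22.0 and 86.9 and the ligands between 0.736 and 8.68.

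The shares of the kinase receptors varied with what is taken as Fgfr2. As counted, and per kilobase of exon, Fgfr2 made up 54.2% to 67.5% of the summed level of the 4 kinase receptors in a library, Fgfr3 16.5% to 29.3%, Fgfr1 10.9% to 18.5% and Fgfr4 0.953% to 1.51%. With the remainder in place of the Fgfr2 row, Fgfr3 held the largest share in 4 of 6 libraries, at 40.2% to 47.5% in the controls and at 45.0%, 29.7% and 35.3% in mutant replicates 1, 2 and 3. Fgfr4 stayed at 2.47% or less in both forms. The receptor mix of these discs therefore depended on the Fgfr2 value chosen, and Fgfr4 was the rarest kinase receptor with either. These shares carry the limit given above for levels per exon length.

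To determine whether loss of Adgrg6 altered expression of these genes, the mutant libraries were set against the controls by the quasi-likelihood test of edgeR, and p-values were adjusted by Benjamini-Hochberg over the 16152 genes tested. None of the 8 members passed at an adjusted p under 0.05 (0 of 8), where 0.00619% of all genes tested passed. That share is 1 gene, the serine protease gene Prss50. At an unadjusted p under 0.05 the count of members was also 0, against 7.21% of all genes (2.89% higher and 4.32% lower in mutants). DESeq2 likewise called 0 members at either threshold, and limma-voom with quality weights called 0 adjusted and 1 unadjusted, Fgf2. Groups did not overlap for 1 of the 8 members, Fgf2, against 11.4% of all genes. On simulated counts over 15804 genes, the same test recovered 32.7% of 2-fold and 83.3% of 4-fold changes, so smaller changes would mostly not have been called.

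Fgfr3, which restrains chondrocyte proliferation, was at 386, 391 and 297 CPM in controls and at 525, 217 and 245 CPM in mutants. Mutant replicate 1 was the highest of the 6 libraries and the other mutants were the lowest, so the mutant SD (170) was larger than that of the controls (52.9) and the groups overlapped. The log2 fold change of mutant over control was -0.12 ± 0.32 (SE; adjusted p = 0.945, edgeR), with a 95% interval from -0.83 to 0.59. The value depended on mutant replicate 1, without which it was -0.60 (unadjusted p = 0.0309, adjusted p = 0.939, edgeR), while without mutant replicate 2 it was 0.12. Beside this, the summed CPM of 7 genes of prehypertrophic and hypertrophic cartilage was 1927 to 2899 in controls and 1645 to 1894 in mutants. Of these stages, Fgfr3 is known from the prehypertrophic one. Of the 7 genes, 1 had a higher fitted level in mutants, and 4 had an unadjusted p under 0.05, all lower (4.32% of all genes). Among the 4 was Ihh, the signal of prehypertrophic chondrocytes (log2 fold change -1.49, unadjusted p = 8.9e-05, adjusted p = 0.287, edgeR). In mutant replicate 1 that sum was 1894, the highest of the mutants, and its sum of glia and neuron genes was the highest of all libraries at 4005. The part of either in the Fgfr3 values was not tested.

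Fgfr1, the kinase receptor best known from hypertrophic chondrocytes, was at 336, 316 and 217 CPM in controls and 384, 320 and 378 CPM in mutants. The mutants were all above control replicates 2 and 3, and mutant replicate 2 was below control replicate 1. The log2 fold change was 0.31 ± 0.21 (adjusted p = 0.782, edgeR; 95% interval -0.16 to 0.79), and it was between 0.15 and 0.45 with any 1 library left out. Control replicate 3, the lowest for Fgfr1, was also the lowest for the summed cartilage genes, a sum that is mostly Col2a1. The prehypertrophic and hypertrophic sum given for Fgfr3 stood lower in mutants, while the fitted level of Fgfr1 was higher; its part was not tested.

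Fgfrl1, the receptor that lacks a kinase, was at 154, 211 and 131 CPM in controls and 242, 137 and 195 CPM in mutants. The values of the groups interleaved. The log2 fold change was 0.21 ± 0.25 (adjusted p = 0.863, edgeR; 95% interval -0.35 to 0.77), and the value ran from 0.043 (mutant replicate 1 left out) to 0.42 (mutant replicate 2 left out). Fgfr4 was at 11.02, 9.88 and 7.19 CPM in controls and 8.54, 6.20 and 8.39 CPM in mutants, a log2 fold change of -0.28 ± 0.29 (adjusted p = 0.844, edgeR; 95% interval -0.92 to 0.36), and its groups overlapped as well. That value ran from -0.43 to -0.13 over the left-out libraries.

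The Fgfr2 row gave 1183, 1202 and 1407 CPM in controls and 1401, 1232 and 1364 CPM in mutants, with a log2 fold change of 0.08 ± 0.21 (adjusted p = 0.950, edgeR; 95% interval -0.40 to 0.55) that was -0.053 with scaling to library totals alone and 0.033 to 0.17 with a library left out. With the Htra1 counts subtracted the log2 fold change was 0.03 ± 0.22 (adjusted p = 0.980), with them added 0.09 ± 0.23 (adjusted p = 0.945), and for the remainder 0.14 ± 0.29 (adjusted p = 0.935, edgeR for each). The remainder was 338 ± 65.9 CPM in controls and 373 ± 137 CPM in mutants, with mutant replicate 1 the highest library and mutant replicate 3 the lowest, so the choice moved the level of Fgfr2 far more than the difference between groups.

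**Figure D3:**
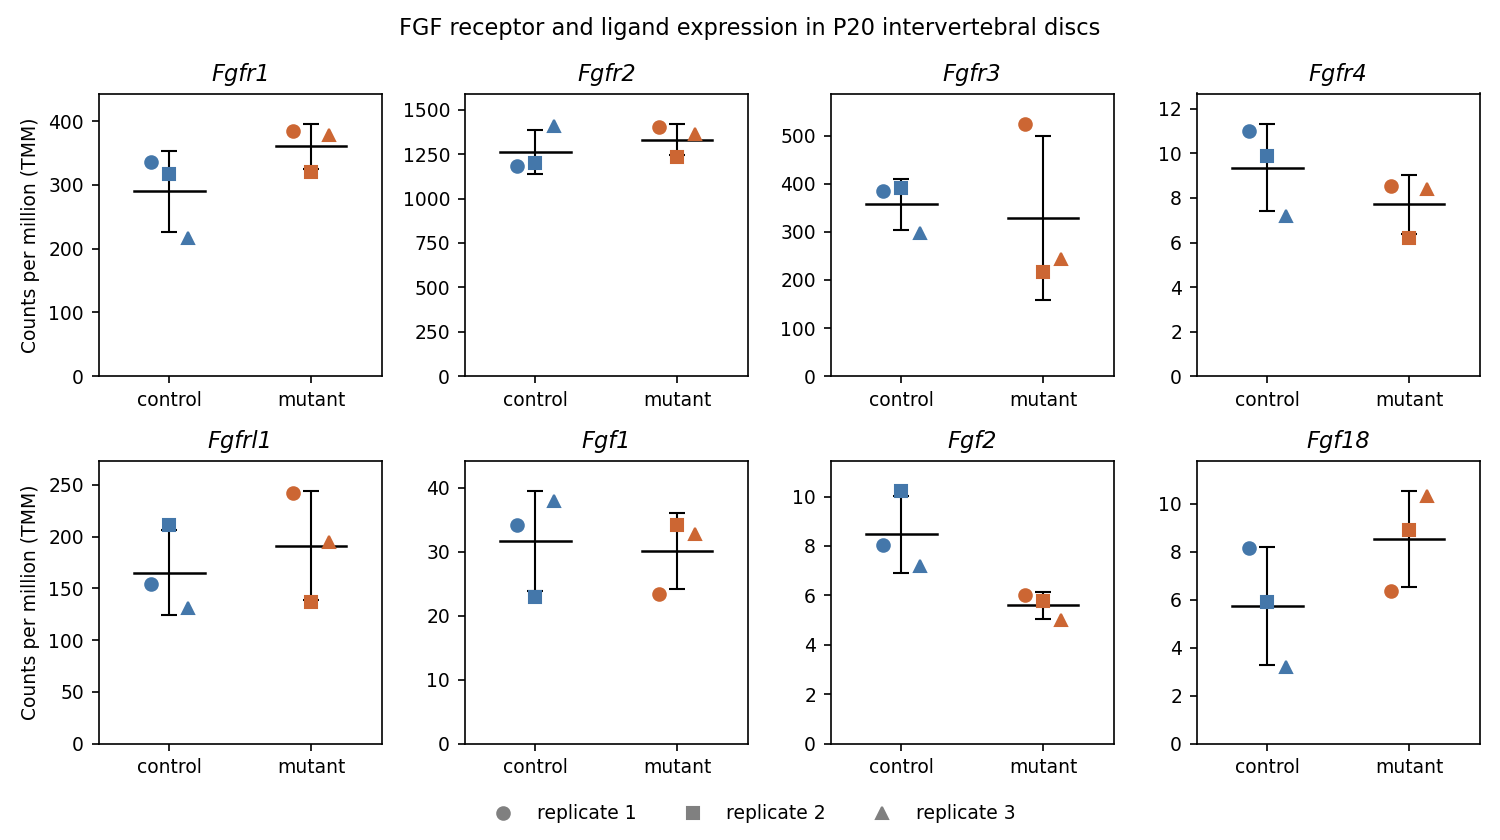
CPM of each member in each library (y axis from 0, TMM-normalized) in control and mutant discs, with horizontal bars for the group mean and error bars for the SD (n = 3). The groups overlap in each panel except Fgf2, where the mutant libraries lie at 4.99 to 6.03 and the controls at 7.19 to 10.2.

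Of the 3 ligands, 1 had a higher and 2 a lower fitted level in mutants, and 0 passed at an unadjusted p under 0.05. Fgf2, the matrix-bound ligand, was at 8.03, 10.2 and 7.19 CPM in controls and 6.03, 5.79 and 4.99 CPM in mutants. The mutant libraries lay all below the controls, and the mean was 8.48 ± 1.56 CPM in controls and 5.61 ± 0.544 in mutants. The log2 fold change was -0.59 ± 0.30 and did not pass the test (unadjusted p = 0.0728, adjusted p = 0.706, edgeR; 95% interval -1.25 to 0.07). These are few reads, 430 in the 6 libraries. With the Fgf2os counts added the log2 fold change was -0.61 (unadjusted p = 0.0459, adjusted p = 0.690, edgeR). With the Nudt6 counts added it was 0.08 (adjusted p = 0.943, edgeR), in a sum that is mostly Nudt6.

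Fgf18, the ligand known for its action on growth plate and articular chondrocytes, was at 8.13, 5.88 and 3.21 CPM in controls and 6.37, 8.90 and 10.3 CPM in mutants. Mutant replicates 2 and 3 were above the controls and mutant replicate 1 was within them. The log2 fold change was 0.58 ± 0.38 (adjusted p = 0.780, edgeR; 95% interval -0.28 to 1.43). Without control replicate 1, the library with the high muscle sum, it was 0.94 (unadjusted p = 0.0408, adjusted p = 0.321, edgeR). In that fit 2427 of all genes had an unadjusted p under 0.05, against 1164 in the main fit. Over the left-out libraries the log2 fold change of Fgf18 ranged from 0.29 to 0.94.

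Fgf1 was at 34.1, 22.9 and 37.9 CPM in controls and 23.3, 34.2 and 32.8 CPM in mutants, so that 1 library of each group was low and the groups overlapped. Its log2 fold change was -0.07 ± 0.23 (adjusted p = 0.957, edgeR; 95% interval -0.58 to 0.44), and it turned positive in limma-voom (0.079) and in 3 of the 6 fits with a library left out. With the Arhgap26 counts added it was -0.25 ± 0.22 (adjusted p = 0.820, edgeR), in a sum that is mostly Arhgap26.

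**Figure D4:**
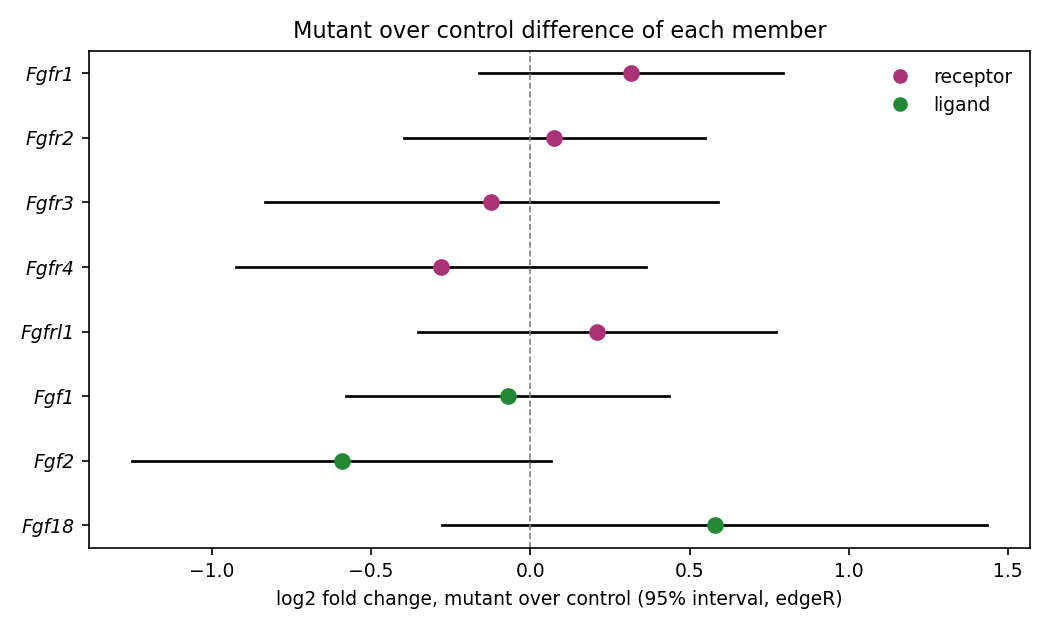
Log2 fold change of mutant over control for the 5 receptors and 3 ligands (x axis), with 95% intervals from the edgeR fit as lines. The 8 intervals include 0, and the fitted values run from -0.59 (Fgf2) to 0.58 (Fgf18).

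The balance between receptors was compared within libraries, which needs no scaling between them. The log2 ratio of Fgfr3 to Fgfr1 per kilobase was 0.66, 0.77 and 0.91 in controls and 0.92, -0.09 and -0.16 in mutants. Fgfr3 was thus above Fgfr1 in the 3 controls and in mutant replicate 1, and below it in mutant replicates 2 and 3. The means were 0.78 ± 0.13 and 0.22 ± 0.60, a difference of -0.56 that did not pass a two-sided exact permutation test (p = 0.4, where the smallest p that 3 against 3 libraries allow is 0.1). Leaving out mutant replicate 1 gave -0.91, and leaving out replicate 2 or 3 of the mutants gave -0.41 or -0.37. The ratio of Fgfr2 to Fgfr1 differed by -0.26 (exact permutation p = 0.7) and that of Fgfr3 to Fgfr2 by -0.31 (exact permutation p = 0.4). With the remainder of Fgfr2 these were -0.25 (exact permutation p = 0.7) and -0.31 (exact permutation p = 0.5). The 3 ratios gave unadjusted p-values, none of which could pass after adjustment.

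The remaining pathway genes were described by lists of their roles. Of 15 other secreted FGF ligands, 4 had enough counts to be tested (Fgf7, Fgf10, Fgf17 and Fgf20), 2 were at 0 counts (Fgf3 and Fgf4), and 0 of the 4 passed at an unadjusted p under 0.05. Fgf10, a mesenchymal ligand of the Fgfr2b isoform, was at 2.79 ± 2.42 CPM in controls and 1.98 ± 1.26 in mutants. Fgf20, a ligand best known from the inner ear and kidney, was at 1.08 ± 0.755 and 1.67 ± 0.511 CPM. No list described here had a gene at an adjusted p under 0.05 (0 in each, edgeR), and the median log2 fold change over all genes tested was -0.01.

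The FGF homologous factors Fgf11, Fgf12, Fgf13 and Fgf14 stay inside the cell, where they bind voltage-gated sodium channels and do not act through the receptors. Their median log2 fold change was -0.94, and 2 of 4 had an unadjusted p under 0.05, 1 in each direction, where 7.21% of all genes did. Fgf11 was at 4.17, 4.11 and 2.97 CPM in controls and 6.71, 8.41 and 5.74 in mutants, all mutants above all controls (log2 fold change 0.90, unadjusted p = 0.0284, edgeR). Fgf12 was at 1.71, 5.66 and 5.16 CPM in controls and 1.25, 1.88 and 1.38 in mutants (log2 fold change -1.46, unadjusted p = 0.0271, edgeR), and control replicate 1 lay among the mutants. Fgf13 and Fgf14, named after their values were seen, had log2 fold changes of -0.86 and -1.01. Their control values were the most scattered of the list, with Fgf14 at 3.00, 11.5 and 26.3 CPM in control replicates 1, 2 and 3 against 5.58 to 8.08 in mutants. With scaling to library totals alone the p of Fgf11 was 0.0533 (edgeR), and the count of the list was 1. The p of Fgf11 rose above 0.05 in 2 of the 6 fits with a library left out (0.109 without mutant replicate 2) and that of Fgf12 in 4 (0.116 without control replicate 2). The count of 2 was 0 without control replicate 3 and 4 without control replicate 1. Over the same fits the count of all genes past that threshold was 618 and 2427. The homologous factors are also known from neurons. The sum of the 9 genes of glia and neurons, most of it the myelin gene Mbp, was 241, 1907 and 638 CPM in controls, while of its 3 neuronal genes Rbfox3 was at 5.46, 10.3 and 16.3 CPM, Snap25 at 0, 0.888 and 3.21 CPM and Nefl at 0.321, 1.33 and 0 CPM, so that the first 2 of these 3 followed the order of Fgf14 and Nefl did not. In mutants Rbfox3 was at 4.44, 6.28 and 4.89 CPM, Snap25 at 2.16, 1.14 and 0 CPM and Nefl at 7.97, 3.59 and 0.744 CPM. Their part in the values of the 4 genes was not tested.

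Of 13 coreceptors and extracellular partners in the files, 11 were tested, 3 with a higher and 8 with a lower fitted level in mutants, with a median of -0.17. An unadjusted p under 0.05 was found for 2, both lower, where 4.32% of all genes were lower at that threshold. Klb, beta-Klotho, the coreceptor of the endocrine FGFs, was at 1.18, 1.55 and 3.67 CPM in controls and 0.341, 0 and 0.744 in mutants, below the controls in each (log2 fold change -2.59, unadjusted p = 0.0233, edgeR), from 82 counts in all. Flrt2, a transmembrane protein that binds FGF receptors and guides cell adhesion, was at 19.0, 12.7 and 20.6 CPM in controls and 11.2, 14.6 and 7.97 in mutants (log2 fold change -0.63, unadjusted p = 0.0482, edgeR). With a library left out, the log2 fold change of Klb ran from -3.70 (mutant replicate 3) to -1.93 (control replicate 3). The p of Klb rose above 0.05 when control replicate 3 (0.117) or either of the mutant replicates 1 (0.0774) and 2 (0.066) was left out. That of Flrt2 rose above 0.05 without control replicates 1 (0.118) or 3 (0.168) or mutant replicates 1 (0.109) or 3 (0.174), and in DESeq2 (0.0543), limma-voom (0.0509) and with a replicate block (0.0792). Hspg2 (perlecan) and Sdc4, heparan sulfate proteoglycans and the most abundant of the list, were named after their values were seen. Hspg2 was at 1557 ± 358 CPM in controls and 1396 ± 333 in mutants, and Sdc4 at 587 ± 70.3 and 479 ± 67.6.

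Of 19 adaptors and transducers, 10 had a higher and 9 a lower fitted level, with a median of 0.08, and 1 had an unadjusted p under 0.05, no more than the 7.21% of all genes. This was Shc1, an adaptor of many receptor tyrosine kinases, at 83.4, 79.3 and 70.4 CPM in controls and 141, 102 and 107 in mutants. The mutants were all above the controls (log2 fold change 0.59 ± 0.18, unadjusted p = 0.00962, edgeR), and its p stayed between 0.00705 and 0.0356 with any 1 library left out, but the adjusted p was 0.676.

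Of 16 feedback inhibitors and targets of FGF and MAP kinase signalling, 9 had a higher and 7 a lower fitted level, with a median of 0.22. Only Ier3, an early response gene, had an unadjusted p under 0.05, again 1 gene against 7.21% of all genes. It was at 16.6, 12.7 and 8.29 CPM in controls and 25.0, 13.0 and 22.9 in mutants (log2 fold change 0.70, unadjusted p = 0.0498, edgeR). Leaving out any of 4 libraries lifted that p to 0.05 or above, and with scaling to library totals alone it was 0.0648 (edgeR). The phosphatase gene Dusp6 and the transcription factor gene Etv5, standard readouts of FGF signalling, were named after their values were seen. Dusp6 was at 6.64, 3.44 and 1.95 CPM in controls and 8.08, 5.39 and 11.05 in mutants, with a log2 fold change of 1.03 (unadjusted p = 0.0547, edgeR) and overlapping groups. Etv5 was at 46.3 ± 4.81 CPM in controls and 53.6 ± 0.614 in mutants, with a log2 fold change of 0.21 (unadjusted p = 0.201, edgeR); its groups did not overlap, as was found for 11.4% of all genes. Other inhibitor and Etv genes of the list, also named after the values were seen, ran in both directions. The log2 fold changes were -0.05 for Etv4 and -0.32 for Etv1, 0.61, -0.04 and 0.56 for the feedback inhibitors Spry1, Spry2 and Spry4, 0.23, 0.34 and 0.39 for the related Spred1, Spred2 and Spred3, and -0.042 and -0.0013 for Dusp4 and Dusp5, with unadjusted p above 0.05 for each. Counts past the unadjusted threshold in this list ranged from 0 to 4 with a library left out. The count was 0 with library totals alone and 2 without the filter, in DESeq2 and in limma-voom.

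**Figure D5:**
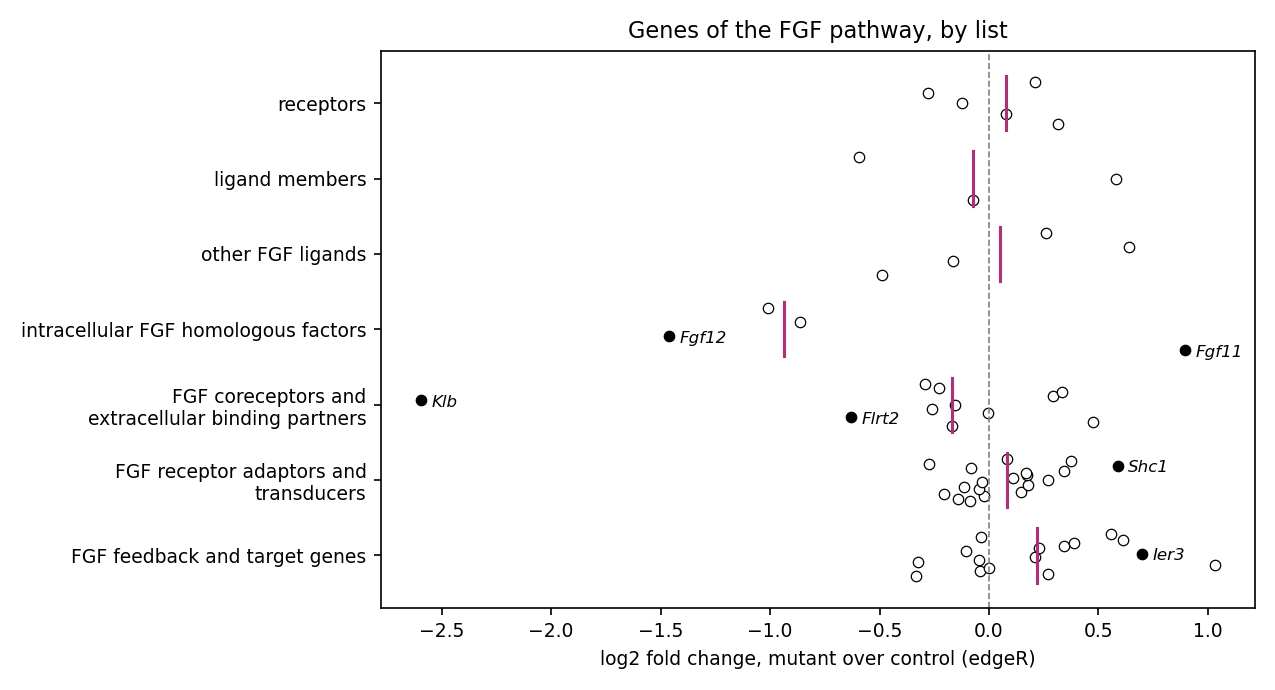
Log2 fold change of mutant over control (x axis) for each tested gene of the FGF pathway, by list; filled points have an unadjusted p under 0.05 and are named, open points do not, and vertical bars are the list medians. The receptors and the 3 ligands lie between -0.59 and 0.58, and the 6 named genes belong to the intracellular factors, the coreceptors, the adaptors and the targets.

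The genes whose log2 CPM most resembled each member over the 6 libraries were found among 16151 other genes by Pearson correlation, as a description only, since the libraries share depth and tissue composition and the highest of so many values is large by selection. Fgfr3 was most like Txnl1, Gm16861 and Psmd10 (r = 0.990, 0.988 and 0.984), which share its high value in mutant replicate 1. Fgfr1 was most like Dnajb1, Irgq and Trnp1 (0.997, 0.996 and 0.993) and Fgfrl1 like Amz1, Eif1b and Kctd15 (0.992, 0.990 and 0.988). Fgfr4 was most like Slc25a28, Gm16564 and Exoc3l4 (0.991, 0.988 and 0.988), and the Fgfr2 row like Sec22c, 4930597O21Rik and Arhgdib (0.996, 0.995 and 0.990). Among the ligands, Fgf1 was most like Tfpi, Clcn3 and Sel1l3 (0.991, 0.985 and 0.984), Fgf2 like Taf1, Wdr73 and Gm16295 (0.994, 0.983 and 0.976), and Fgf18 like Slc39a13, March2 and Ppme1 (0.996, 0.992 and 0.990). Each was named by its place in the order alone.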

How the data were processed

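Whole IVDs of 3 control and 3 mutant pools were profiled by poly(A) RNA-seq. The authors deposited counts per gene symbol and library with the closing lines of htseq-count. The submitters' processing notes name STAR 2.5.3a, HTSeq, DESeq2 and GRCm38 (mm10), whereas the methods of the study name HISAT2, StringTie and Ballgown; which of them made the counts, and the strand setting, is not given in the sources used here. A deposited table of the authors' own comparison was not used.

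Lines that name no gene were left out of library sizes; they took 55.8% to 59.6% of the reads. Counts were tested with edgeR 4.0.16 in R 4.3.3 (TMM, filterByExpr with a count minimum of 10, quasi-likelihood test, Benjamini-Hochberg over 16152 genes). CPM are TMM-normalized. Each log2 fold change is given ± its SE. Exon lengths and overlaps come from GENCODE M21. Ratios were compared by exact permutation in scipy 1.17.1. The same fit was tested on simulated data. The replicates are separate pools of mice. Depth covers counting error only.

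The members and lists, though set by gene name, were chosen with earlier results of these data known. All members were named, then list genes with an unadjusted p under 0.05 (otherwise the 2 with the highest mean CPM), opposite-strand genes that bear on a result, and the 3 genes most like each member on log2 CPM with a prior count of 2. Alternatives were RLE factors, library totals, no filter, a replicate block, DESeq2 1.42.0, limma-voom (limma 3.58.1), leaving out each library, and sums with or without overlapping genes.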

Additional observations from a re-analysis of the deposited data

How the results depend on the processing

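Over 102 alternative fits of the 8 members, which include sums with overlapping genes, 94 kept the direction and 8 reversed it. None reached an adjusted p under 0.05 (lowest 0.321, highest 0.999), and 5 had an unadjusted p under 0.05. Fgfr2 reversed to -0.053 with scaling to library totals alone, which moved the median log2 fold change of all genes from -0.01 to -0.13 and the share of higher genes among those past the unadjusted threshold from 40.1% to 19.1%. With limma-voom that share was 49.7% and Fgf1 reversed to 0.079. The sum of Fgf2 and Nudt6 was at 0.083 and was counted as a reversal. Nudt6 has 966 counts against 430 for Fgf2, so the sum is mostly Nudt6 and cannot check the direction of Fgf2. The same holds for Fgf1 with Arhgap26, at 1943 and 3646 counts. With libraries left out, Fgfr3 ranged from -0.60 to 0.12 and Fgf1 from -0.26 to 0.12, while the other members kept their direction. Members past the unadjusted threshold were 1 with library totals and 1 with limma-voom, both Fgf2, and 0 to 1 with a library left out. The log2 difference of the ratio of Fgfr2 to Fgfr1 ranged from -0.42 to 0.017 with a library left out, and was 0.017 without control replicate 3. That of Fgfr3 to Fgfr1 ranged from -0.91 to -0.37 and that of Fgfr3 to Fgfr2 from -0.66 to -0.12. By longest transcript, Fgfr3 took rank 2 and Fgfrl1 rank 3 in controls. Same-numbered libraries did not deviate together (r = 0.16, -0.13 and 0.10), so the replicate numbers were not taken as pairs; with a replicate block Fgfr3 was at -0.23, Fgf2 at -0.59 and Fgf18 at 0.64, and 0 of all genes passed at an adjusted p under 0.05. Over all genes, 245 passed at that threshold without the filter, 58 in DESeq2, 31 without control replicate 1 and 0 in limma-voom and in the other fits with a library left out. At an unadjusted p under 0.05 there were 2276 without the filter, 2427 without control replicate 1 and 618 without control replicate 3. The causes were not tested. Fgf2, Fgf18 and Fgfr4 had the fewest counts of the members, 430, 432 and 514 in all.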
